A study of Sus scrofa with 24 samples.

Results

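Chemokines are small secreted proteins that guide leukocytes along concentration gradients. They act through receptors that couple to inhibitory G proteins, while atypical receptors bind the same ligands without that coupling and mostly clear or transport them. In subcutaneous fat they are known as signals between adipocytes, endothelium, stromal cells and the macrophages and lymphocytes that live in or enter the tissue. The genes described here were those whose symbol marks a CC, CXC, CX3C or XC ligand, a receptor of these ligands, an atypical receptor or CCRL2, with at least 1 count in at least 7 of the 24 libraries. Of the 25880 Ensembl genes counted, 45 had such a symbol and 44 met the detection rule, 24 ligands and 20 receptors. The gene left out was CCL28, a mucosal ligand, which had counts in 5 libraries. Counts were above 0 in all 24 libraries for 31 of the 44 genes.

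RNA-Seq had been run on dorsal subcutaneous adipose tissue of 24 male Iberian piglets, 6 per maternal diet, each piglet from a separate litter. Sows ate the experimental diets from gestation day 85 through lactation, litters were weaned at day 28, and the piglets were sampled at day 33, which was 5 days later. The control diet (C) had 30 mg of vitamin E added per kg of feed, and the VE diet 100 mg/kg. The HT diet had 30 mg/kg with 1.5 mg/kg of hydroxytyrosol (an olive polyphenol), and the VEHT diet 100 mg/kg with 1.5 mg/kg of hydroxytyrosol. These are added amounts. The vitamin E content that the paper analysed was higher than the amount added in every diet, most of all in C and HT. All piglets were thus born to sows that received some added vitamin E, and the diets acted on them through the sow.

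Levels are given as CPM, the count relative to the library size scaled by the trimmed mean of M values (TMM), and libraries held 36614639 to 61919211 gene counts. Adipocyte genes were abundant in every library, and the hormone gene ADIPOQ had at least 765 CPM. Before any comparison, 3 libraries have to be named: G041 and G047 of the C diet and G141 of the VEHT diet. Their mean level of 16 macrophage markers was 8.70 to 9.07 log2 CPM against 3.64 to 6.75 in the other 21 libraries. The same held for 12 T cell markers (4.90 to 5.54 against -0.88 to 3.67), for 6 plasma cell markers (5.59 to 6.45 against -0.89 to 3.81) and for 7 B cell and follicle markers (2.26 to 2.52 against -3.81 to -0.41). Mean adipocyte marker levels were lower in them (6.83 to 7.38 against 8.17 to 10.03 log2 CPM), as were those of 6 endothelial markers (5.51 to 6.15 against 6.82 to 8.41). These libraries also had the 3 lowest shares of reads without a feature (8.31% to 10.4% against 10.6% to 16.5%) and the 3 highest shares of reads not mapped uniquely (3.67% to 5.15% against 2.41% to 3.61%), and the part of these shares in the results was not tested. These 3 piglets were the 3 highest of all 24 in 28 of the 44 chemokine genes, a pattern found in 13.8% of the 17602 genes tested. Mean levels of 6 skeletal muscle markers also varied widely but did not set these piglets apart (0.63 to 7.21 against -1.49 to 11.94 log2 CPM). By diet this muscle mean was lowest for C (5.61, SD 4.06) and highest for VEHT (7.86, SD 4.18). The part of muscle content in the results was not tested. In bulk tissue, more cells of a type and more RNA per cell cannot be told apart.

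**Figure D1:**
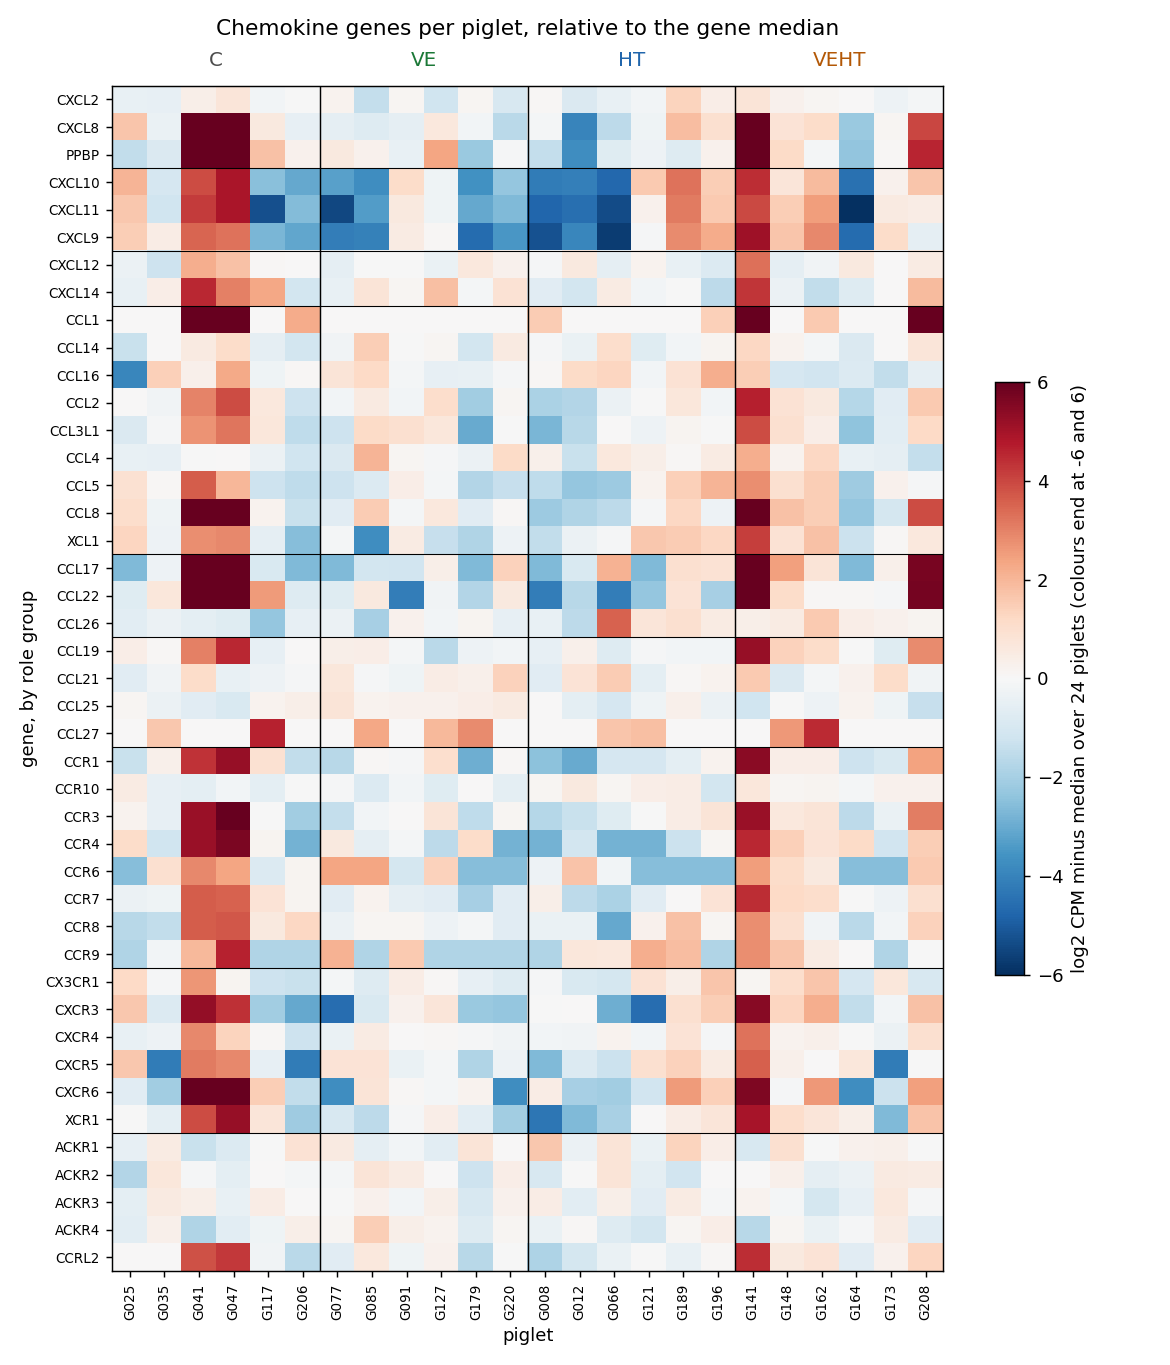
Each row is 1 of 43 chemokine genes, grouped by role, and each column a piglet, grouped by maternal diet; colour gives log2 CPM minus the median of the gene over 24 piglets. The columns of G041 and G047 (C) and of G141 (VEHT) are red over most genes, while CCL26, CCL25, CCL27, CCR10 and the atypical receptors ACKR1 to ACKR4 do not follow them.

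Compared per kilobase of exon, so that levels of different genes can be set side by side, the highest median over the 24 piglets was that of CCL14 (130 CPM per kb), a ligand of CCR1 made in many tissues. It was followed by the scavenging receptors ACKR4 (95.9) and ACKR3 (88.5), by the monocyte attractant CCL2 (65.1) and by CCL21 (61.8), which guides CCR7-bearing cells into lymphatics. At the other end CCL1 and CCL27 had a median of 0, and CCR6, CCR9, CCL17, CCR4 and XCR1 had medians under 0.03 CPM per kb. The levels of each gene varied several-fold between piglets, so that the order of close neighbours is not firm. The exon models of CCL19, CCL21, CCL27, CXCL9, CCL3L1, CCL4, CCL8 and XCL1 are short (282 to 450 bases), and their levels per kb are less certain for that reason. Exon lengths were those of RefSeq, while the counts are for Ensembl genes.

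The factorial model asked whether the response to 1 antioxidant depended on the other. The interaction was (VEHT - HT) - (VE - C) on the log2 scale, positive where C and VEHT were high against VE and HT. With edgeR's quasi-likelihood test over all 24 libraries and a q (Benjamini-Hochberg adjusted p over 17602 genes) of at most 0.10, 18 of the 44 genes were called, against 3.95% of all genes tested. All 18 were positive, and 27 genes had an unadjusted p under 0.05, again all positive, beside 14.8% of all genes. DESeq2 called 27 of the 44, beside 7.13% of all genes (6.37% positive). The median interaction of the 44 genes was 3.62, beside 0.02 over all genes tested. G041, G047 and G141 were picked by their marker levels in these data, and all lie in C and VEHT. For genes highest in them, leaving them out lowers the interaction by construction. Without G041, G047 and G141 no chemokine gene was called and no other gene either. In that fit 6 chemokine genes had an unadjusted p under 0.05, 5 of them positive, beside 3.76% of all genes (2.08% positive), the median of the 43 genes tested was 0.60, and 17 of the 18 called genes were still tested, all positive with a median of 1.67. With VEHT piglet G208 left out as well, a choice made after seeing the data, 16 of these 17 were positive, with a median of 0.84. Leaving out VEHT piglet G141 alone also left 0 called, with all 18 positive and a median of 5.62. The macrophage, T cell and plasma cell markers moved with this contrast too (9 of 16, 4 of 12 and 5 of 6 called, all positive), and their part in the chemokine result was not tested.

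**Figure D2:**
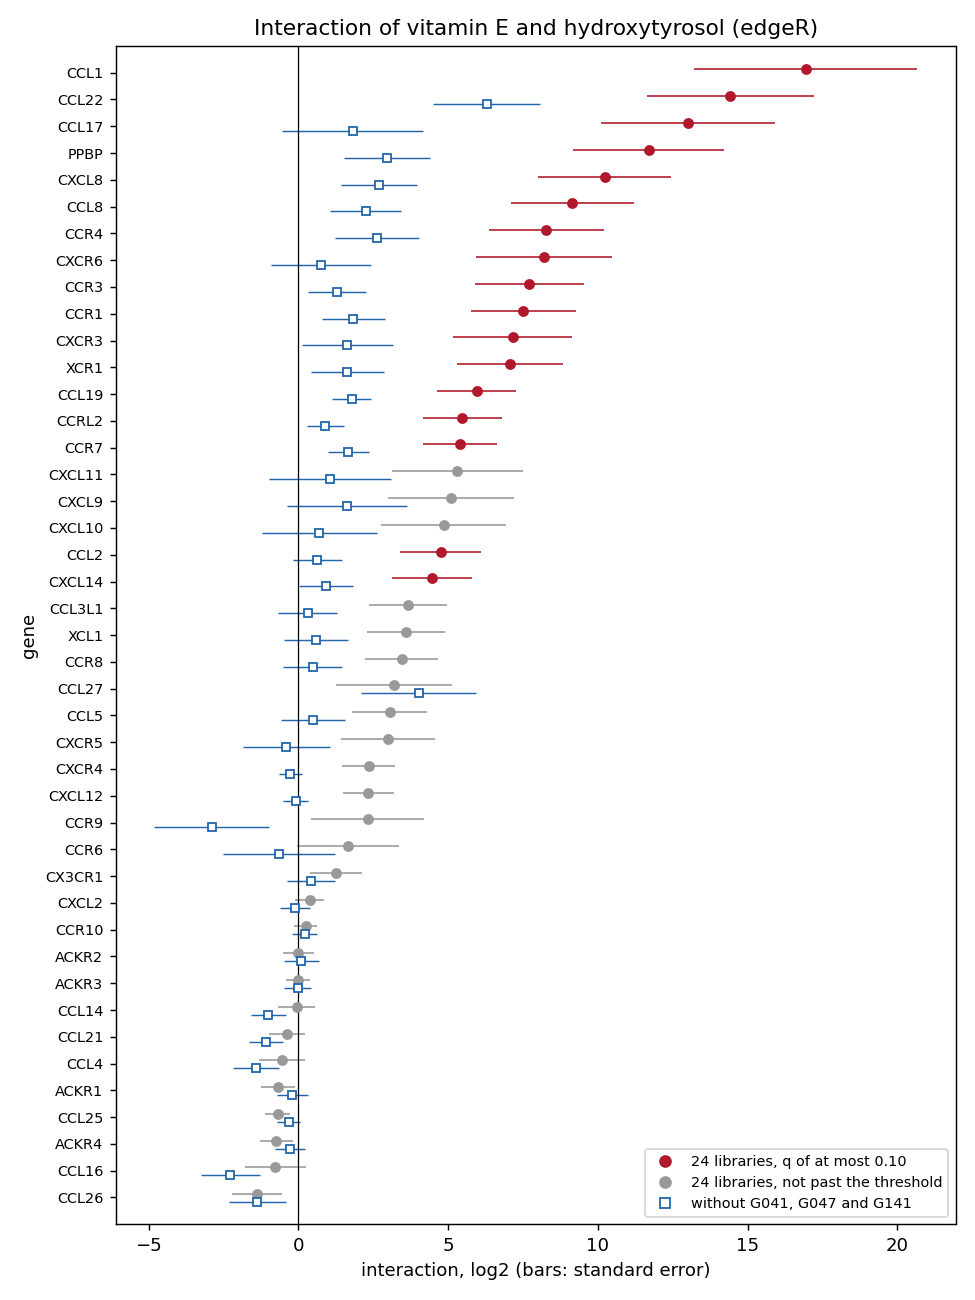
Points give the interaction of vitamin E and hydroxytyrosol for 43 chemokine genes on the log2 scale with its standard error, from all 24 libraries (circles, red where q is at most 0.10) and without G041, G047 and G141 (open squares). The called genes lie between 4.46 and 16.94 with all libraries, and most of them move towards 0 without the 3 piglets.

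The type 2 ligands CCL17 and CCL22 bind CCR4 and attract regulatory and type 2 helper T cells, and they lie close together on chromosome 6. Their promoters are shown because both genes had the same 4 piglets on top. Each stretch is the 250 bases before the RefSeq start on Sscrofa11.1, plus strand, at chr6:19296476-19296725 for CCL22 and chr6:19345679-19345928 for CCL17. Capitals mark matches to the NF-kB consensus in CCL22. In CCL17 they mark TTC and GAA with 3 bases (TTCNNNGAA) or 4 bases between them, spacings that STAT factors are known to bind.
CCL22: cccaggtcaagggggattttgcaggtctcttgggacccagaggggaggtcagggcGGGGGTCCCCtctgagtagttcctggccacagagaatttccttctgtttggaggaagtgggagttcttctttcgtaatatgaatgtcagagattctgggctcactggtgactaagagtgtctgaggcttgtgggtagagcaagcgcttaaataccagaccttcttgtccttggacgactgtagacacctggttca
CCL17: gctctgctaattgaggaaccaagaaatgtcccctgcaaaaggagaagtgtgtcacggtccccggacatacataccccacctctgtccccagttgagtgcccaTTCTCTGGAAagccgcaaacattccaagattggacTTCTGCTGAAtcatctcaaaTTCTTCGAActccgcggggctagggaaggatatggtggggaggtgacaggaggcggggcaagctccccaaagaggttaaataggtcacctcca
The NF-kB consensus was found on either strand in 16.2% of 20333 pig promoters (250 bases before to 50 after the start) and in 11 of the 43 chemokine promoters found. The 4-base spacing was in 5.89% of all and in 3 of the 43, and TTCNNNGAA in 7.34% of all and in 6 of the 43. Of these 6, CCR1 and XCR1 have overlapping promoter windows that hold the same TTCNNNGAA match, which is thus counted for both. The motifs may overlap one another, and a match describes letters only.

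CCL22 ranged from 0.0968 to 74.9 CPM in C (median 0.664), from 0 to 0.265 in VE (0.124), from 0 to 0.315 in HT (0.0307) and from 0.162 to 50.7 in VEHT (0.281). G047, G041 and G141 were at 50.7 or more, VEHT piglet G208 was at 9.71, and the highest of the other 20 piglets was at 1.05, so that the diets overlapped. The interaction of CCL22 was 14.43 ± 2.78 (standard error, q = 0.0362, edgeR), the smallest p of all chemokine genes. It was 6.30 ± 1.79 without the 3 piglets (unadjusted p = 0.00214, edgeR) and 3.10 ± 1.45 when G208 was left out as well. Since 3 piglets of VE and HT had no count, these fitted values depend on the prior count and are not bounds.

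CCL17 ranged from 0 to 60.7 CPM in C (median 0.0338), from 0 to 0.16 in VE (0.0197), from 0 to 0.266 in HT (0.0656) and from 0 to 9.84 in VEHT (0.223). The highest values were again those of G041, G047, G141 and, at 3.41 CPM, G208, and 7 of the 24 piglets had no count. Its interaction was 13.01 ± 2.91 (q = 0.038, edgeR) and depends on the prior count in the same way. Without G041, G047, G141 and G208 it was -0.74 ± 1.71, with no call.

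CCL26, the third type 2 ligand, is a ligand of CCR3 known in humans as an attractant of eosinophils, and it behaved differently. Its promoter at chr3:10381056-10381305 (plus strand) is shown because the gene stood apart from the other type 2 ligands; capitals mark TTC and GAA with 4 bases between them, of which a second match lay downstream of the start and outside the stretch.
CCL26: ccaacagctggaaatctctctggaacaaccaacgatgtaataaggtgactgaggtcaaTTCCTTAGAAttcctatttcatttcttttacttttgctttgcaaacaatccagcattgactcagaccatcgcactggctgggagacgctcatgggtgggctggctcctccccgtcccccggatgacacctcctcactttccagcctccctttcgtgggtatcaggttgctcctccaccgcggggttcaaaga
CCL26 ranged from 2.22 to 8.65 CPM in C (median 7.23), from 2.75 to 13.1 in VE (9.22), from 3.68 to 126 in HT (16.9) and from 12.3 to 32.5 in VEHT (14.2). Every VEHT piglet was above every C piglet, a separation found in 0.0966% of 17602 genes for this pair, while the HT piglets spread over the widest range, with G012 and G008 at 3.68 and 8.08 CPM and G066 at 126 CPM. Piglets G041, G047 and G141 lay inside the range of the others, at 6.61 to 14.005 CPM.

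In the factorial model CCL26 had the smallest p for hydroxytyrosol among the chemokine genes, with levels higher by 1.59 ± 0.42 log2 in the HT and VEHT diets than in C and VE (unadjusted p = 0.000999, q = 0.787, edgeR). It was therefore not called, and edgeR called 0 of 44 chemokine genes and 0.0% of 17602 genes for hydroxytyrosol. Of the chemokine genes 3 had an unadjusted p under 0.05, as had 6.22% of all genes tested. DESeq2 called none of the 44 either, beside 0.0398% of all genes, and gave CCL26 a q of 0.110. HT piglet G066 decided much of the size: without it the difference was 0.96 ± 0.29, and without G066 and VEHT piglet G162 it was 0.81 ± 0.28. Without G041, G047 and G141 it was 1.63 ± 0.49. The interaction of CCL26 was -1.38 ± 0.83 with all libraries and -0.11 ± 0.58 without G066, not called in either. Of 3 eosinophil and mast cell markers, the eosinophil peroxidase gene EPX had a median of at most 0.00968 CPM in every diet and reached 0.199 CPM at most. The mast cell receptor gene MS4A2 had medians of 8.46 CPM for C (6.72 to 130.1), 12.2 for VE (8.83 to 33.6), 14.4 for HT (11.5 to 28.4) and 13.9 for VEHT (11.4 to 46.0). The medians of KIT were 7.24, 6.51, 6.93 and 6.92 CPM, diets in the same order. None of the 3 was called for hydroxytyrosol. Without G041, G047 and G141, 1 of the 3 had an unadjusted p under 0.05 and was higher with hydroxytyrosol, and 1 was lower in C than in HT and than in VEHT. In C vs VE without these piglets, 1 was lower in C and 1 was higher in C. The shares of all genes under 0.05 in these fits were 8.26% for hydroxytyrosol, 4.82% in C vs HT, 5.03% in C vs VEHT and 7.55% in C vs VE. The part of these markers in the CCL26 result was not tested.

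**Figure D3:**
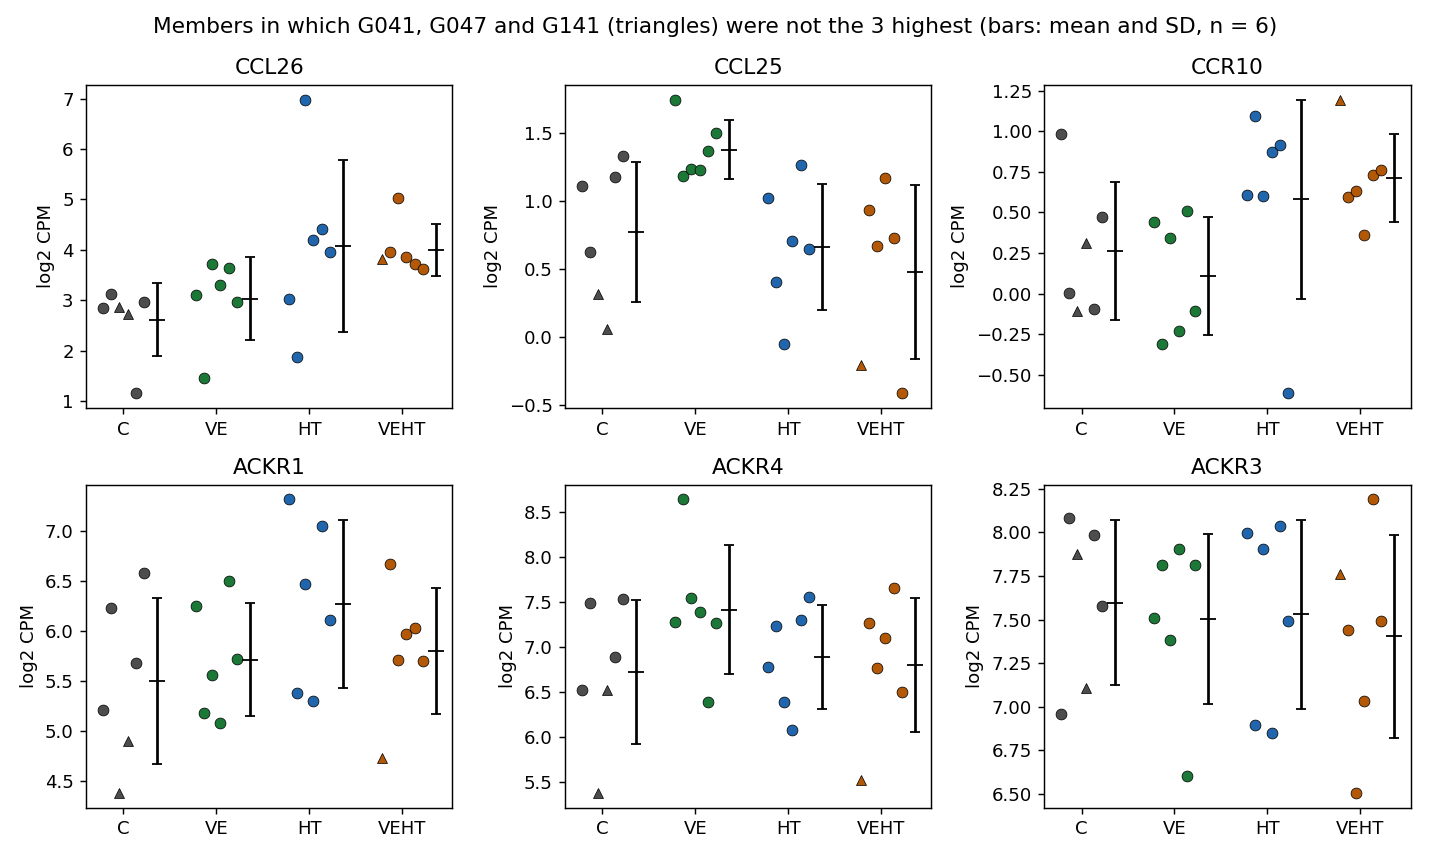
Points are log2 CPM of single piglets by maternal diet for CCL26, CCL25, CCR10, ACKR1, ACKR4 and ACKR3, with triangles for G041, G047 and G141 and bars for the mean and SD (n = 6). The VEHT points of CCL26 lie above all C points, and the VE points of CCL25 lie above all VEHT points.

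Among the ligands that attract neutrophils, CXCL8 ranged from 0.62 to 158 CPM in C (median 2.09), from 0.28 to 1.36 in VE (0.606), from 0.0478 to 3.27 in HT (0.784) and from 0.182 to 104 in VEHT (1.75). G041, G047 and G141 were at 103.7 CPM or more and G208 at 14.2, while the other VEHT piglets lay within the range of VE and HT together. Its interaction was 10.23 ± 2.22 (q = 0.0362, edgeR) and 2.68 ± 1.27 without the 3 piglets.

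PPBP, the precursor of the platelet chemokine CXCL7, ranged from 0.15 to 112 CPM in C (median 1.02), from 0.0855 to 2.35 in VE (0.475), from 0.0239 to 0.536 in HT (0.261) and from 0.0781 to 111 in VEHT (0.731). Its interaction was 11.69 ± 2.53 (q = 0.0362, edgeR). CXCL2, another ligand of CXCR2, was not called (0.37 ± 0.48). It ranged from 24.1 to 56.0 CPM in C, 12.8 to 39.6 in VE, 18.8 to 84.5 in HT and 27.7 to 57.9 in VEHT, and the highest piglet was HT piglet G189. The neutrophil markers CSF3R and S100A8 were called for the interaction as 2 of 6 markers, beside 3.95% of all genes tested. The part of these markers in the values above was not tested.

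**Figure D4:**
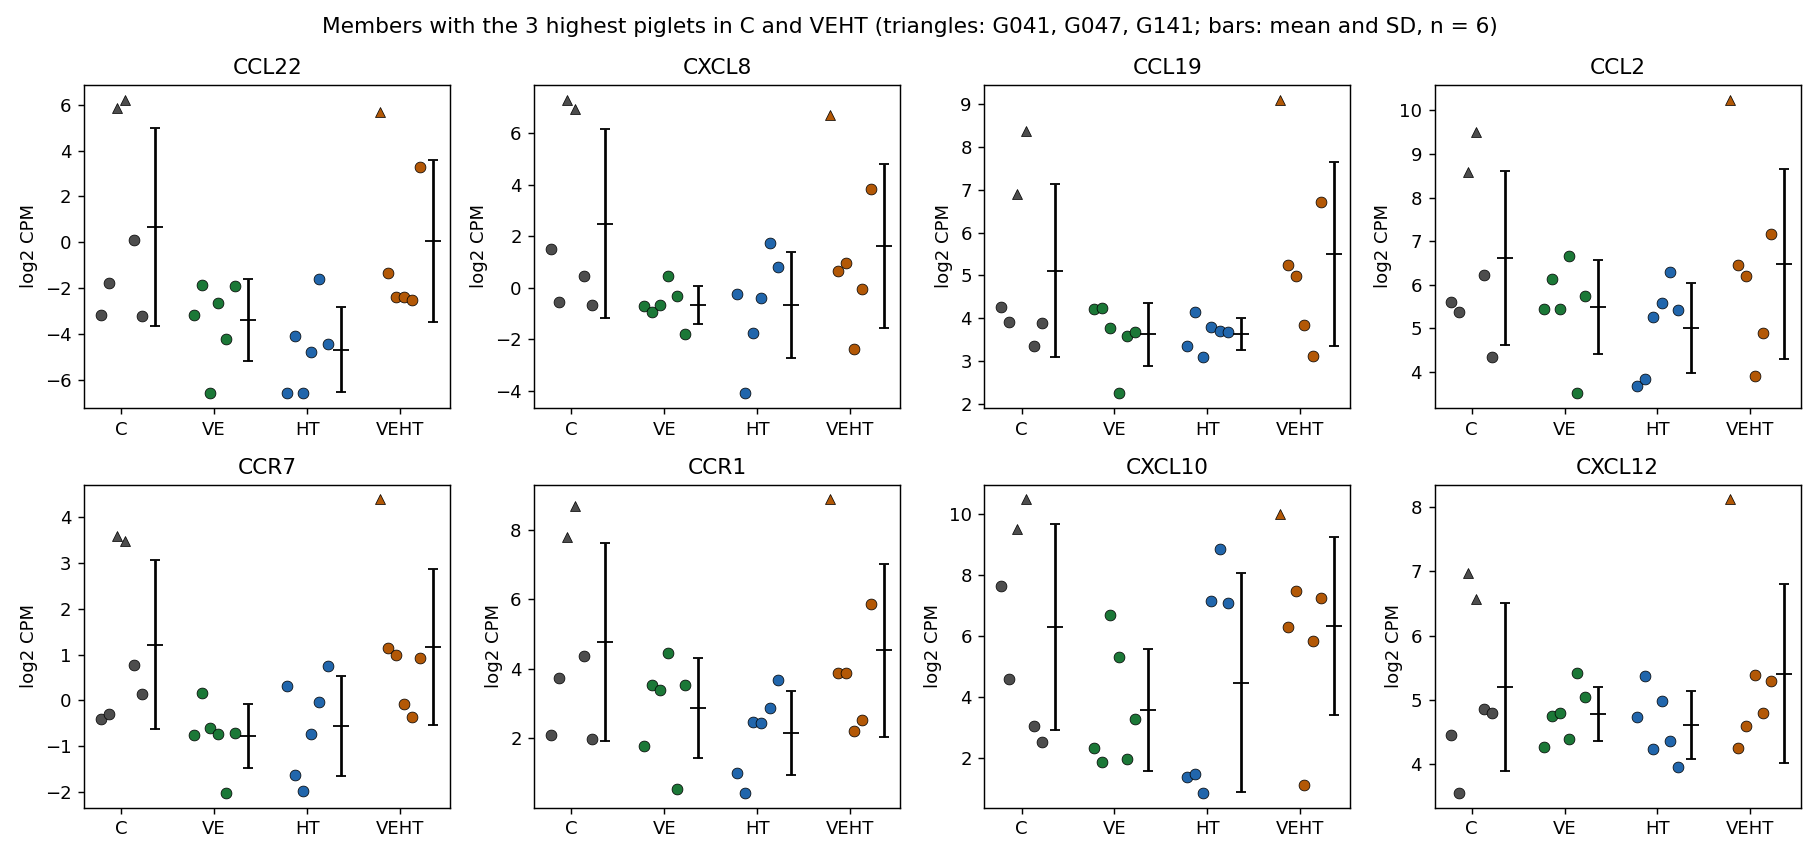
Points are log2 CPM of single piglets by maternal diet for CCL22, CXCL8, CCL19, CCL2, CCR7, CCR1, CXCL10 and CXCL12, with triangles for G041, G047 and G141 and bars for the mean and SD (n = 6). The triangles are the 3 highest points in every panel, and the remaining C and VEHT points lie mostly among those of VE and HT.

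The ligands CXCL9, CXCL10 and CXCL11 are induced by interferon and bind CXCR3 on activated T cells. They varied widely in every diet. CXCL10 ranged from 5.71 to 1435 CPM in C (median 112), from 3.67 to 104 in VE (7.35), from 1.79 to 464 in HT (68.8) and from 2.16 to 1030.4 in VEHT (116). HT piglets split into 3 at 1.79 to 2.80 CPM (G066, G008 and G012) and 3 at 134.8 CPM or more (G196, G121 and G189), and even within VEHT G164 was at 2.16 CPM. CXCL9 spanned 0.488 to 881 CPM over all piglets and CXCL11 0 to 39.9 CPM. Their interactions were 5.09 ± 2.12, 4.86 ± 2.09 and 5.30 ± 2.19 for CXCL9, CXCL10 and CXCL11 (q = 0.248, 0.269 and 0.244, edgeR), none of them called. The promoter of CXCL10 at chr8:71695949-71696198 (minus strand) is shown for this group, with NF-kB consensus matches in capitals.
CXCL10: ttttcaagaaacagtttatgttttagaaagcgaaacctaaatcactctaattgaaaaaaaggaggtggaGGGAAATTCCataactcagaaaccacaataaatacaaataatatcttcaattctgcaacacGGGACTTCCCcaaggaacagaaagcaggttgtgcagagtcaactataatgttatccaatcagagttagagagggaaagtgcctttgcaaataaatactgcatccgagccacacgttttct

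Among the stromal CXC ligands, CXCL12, which retains CXCR4-bearing cells, ranged from 11.7 to 126 CPM in C (median 28.4), 19.4 to 42.9 in VE (27.3), 15.5 to 41.6 in HT (23.7) and 19.0 to 278 in VEHT (33.7). Outside G041, G047 and G141 the diets covered much the same range, and the interaction of 2.34 ± 0.86 was not called (q = 0.179, edgeR). CXCL14, a ligand of skin and stroma, was called with 4.46 ± 1.32 (q = 0.0845, edgeR) and had the largest q of the 18 calls. It ranged from 5.25 to 265 CPM in C, 8.41 to 39.4 in VE, 3.81 to 15.9 in HT and 4.08 to 222 in VEHT.

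Of the inflammatory CC ligands, CCL8, which attracts monocytes and other leukocytes, ranged from 0.775 to 188 CPM in C (median 3.20), 1.20 to 5.67 in VE (1.93), 0.432 to 4.59 in HT (1.12) and 0.391 to 205 in VEHT (6.11). G141, G047 and G041 were at 135 CPM or more and G208 at 30.2, and all other piglets were under 7 CPM. The interaction of CCL8 was 9.14 ± 2.05 (q = 0.038, edgeR). CCL2, the main monocyte attractant, ranged from 20.4 to 731 CPM in C (median 62.1), 11.4 to 102 in VE (48.5), 12.8 to 78.0 in HT (40.8) and 15.0 to 1214 in VEHT (80.5), and its interaction was 4.75 ± 1.36 (q = 0.0751, edgeR).

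CCL1, the ligand of CCR8, had no count in all 6 VE piglets and in 16 of the 24 piglets altogether, and reached 16.9 CPM in C and 3.62 CPM in VEHT. Its fitted interaction of 16.94 ± 3.73 (q = 0.0401, edgeR) rests on the prior count and is no bound. CCL5 and CCL3L1, ligands of CCR1, and XCL1, the ligand of XCR1, had interactions of 3.04, 3.66 and 3.58 (unadjusted p = 0.023, 0.00981 and 0.0115, edgeR) that were not called.

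The remaining genes of this group had interactions below 0, none called. CCL14 ranged from 33.7 to 183 CPM in C, 38.7 to 237 in VE, 51.1 to 172.9 in HT and 46.7 to 195.6 in VEHT. CCL16, a liver-expressed ligand in humans, ranged from 0 to 0.747 CPM in C, 0.103 to 0.347 in VE, 0.128 to 0.715 in HT and 0.0463 to 0.429 in VEHT. CCL4 ranged from 0.349 to 0.834 CPM in C, 0.442 to 3.32 in VE, 0.311 to 1.29 in HT and 0.297 to 3.75 in VEHT. The diets overlapped in all 3 genes, and the interactions were -0.05 for CCL14, -0.76 for CCL16 and -0.54 for CCL4. CCL16 was the only chemokine gene with a negative interaction and an unadjusted p under 0.05 without the 3 piglets (-2.27 ± 0.98, unadjusted p = 0.0308, edgeR), and it was not called there.

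The homing ligands guide lymphocytes and dendritic cells in lymphoid organs and barrier tissues. CCL19, a ligand of CCR7, ranged from 10.2 to 330 CPM in C (median 17.1), 4.72 to 19.0 in VE (13.2), 8.49 to 17.7 in HT (12.9) and 8.69 to 552 in VEHT (34.6). G141, G047, G041 and G208 were at 105 CPM or more, and VEHT piglets G148 and G162 at 37.5 and 31.6 CPM were also above every VE and HT piglet. The interaction of CCL19 was 5.96 ± 1.32 (q = 0.038, edgeR) and 1.78 ± 0.66 without the 3 piglets.

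CCL21, the other CCR7 ligand, ranged from 16.9 to 57.5 CPM in C, 22.5 to 69.6 in VE, 16.7 to 79.2 in HT and 14.6 to 81.5 in VEHT, with an interaction of -0.39 that was not called. CCL27, known from skin, had counts in 9 piglets and 11 reads at most. CCL25, known from thymus and small intestine as the ligand of CCR9, was low but even: it ranged from 1.03 to 2.499 CPM in C (median 1.84), 2.26 to 3.33 in VE (2.45), 0.953 to 2.39 in HT (1.59) and 0.742 to 2.24 in VEHT (1.61). Every VE piglet was above every VEHT piglet, a separation found in 0.307% of 17602 genes for this pair. For hydroxytyrosol CCL25 had a difference of -0.46 ± 0.21 (unadjusted p = 0.037, edgeR), and its interaction was -0.69 ± 0.41, neither called. Its count was 30 to 166 reads per library, so that the counting error of a single value is not negligible beside these differences.

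Among the CC receptors CCR1, which binds CCL3 and CCL5 on monocytes and neutrophils, ranged from 3.93 to 410 CPM in C (median 17.0), 1.45 to 22.1 in VE (11.001), 1.34 to 12.7 in HT (5.48) and 4.61 to 469 in VEHT (14.6). Its interaction was 7.52 ± 1.77 (q = 0.0418, edgeR), with G208 at 58.8 CPM as the highest piglet after the 3. CCR7, the homing receptor of dendritic cells and naive T cells, ranged from 0.748 to 12.03 CPM in C (median 1.39), 0.235 to 1.10 in VE (0.595), 0.244 to 1.68 in HT (0.778) and 0.765 to 21.04 in VEHT (1.92). Its interaction was 5.38 ± 1.23 (q = 0.0391, edgeR), and it was 1.67 ± 0.68 without the 3 piglets (unadjusted p = 0.0238, edgeR), with no call.

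Other called receptors of this class were CCR4 and CCR3. CCR4, the receptor of CCL17 and CCL22, reached 3.73 CPM in C and 1.67 in VEHT against 0.15 in VE and 0.0715 in HT, with an interaction of 8.28 ± 1.92 (q = 0.0401, edgeR). It had no count in 1 VE and 3 HT piglets, so the fitted value depends on the prior count. The gene listed as CCR3 (ENSSSCG00000024311), an eosinophil receptor, is named CCR2, the receptor of CCL2, in the tables of the study, so its identity is uncertain. It reached 271 CPM in C and 116.9 in VEHT against 5.51 in VE and 5.47 in HT, with an interaction of 7.71 ± 1.81 (q = 0.0418, edgeR).

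CCR6, CCR8, CCR9 and CCR10 were not called. CCR6 and CCR9 had at most 24 and 39 reads in a library. CCR8, the receptor of CCL1 on regulatory T cells, had an interaction of 3.45 ± 1.22 (q = 0.161, edgeR). CCR10, a receptor of CCL27 and CCL28 on plasma cells and skin-homing T cells, ranged from 0.92 to 1.97 CPM in C (median 1.11), 0.795 to 1.41 in VE (1.09), 0.643 to 2.13 in HT (1.67) and 1.28 to 2.27 in VEHT (1.59). The diets overlapped, and the difference for hydroxytyrosol was 0.47 ± 0.20 (unadjusted p = 0.0242, edgeR) with all libraries and 0.37 ± 0.21 without the 3 piglets.

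Of the remaining signalling receptors, CXCR3, CXCR6 and XCR1 were called. CXCR3 reached 9.64 CPM in C and 11.07 in VEHT against 0.399 in VE and 0.679 in HT (interaction 7.15 ± 1.98, q = 0.0691, edgeR). CXCR6, the receptor of CXCL16 on tissue-resident T cells, reached 23.6 CPM in C and 6.71 in VEHT against 0.224 in VE and 0.808 in HT (8.19 ± 2.28, q = 0.0699, edgeR). XCR1, the mark of cross-presenting dendritic cells, reached 8.08 CPM in C and 6.498 in VEHT against 0.266 in VE and 0.34 in HT (7.07 ± 1.78, q = 0.0532, edgeR). Each of these genes had VE or HT piglets without a count, so the fitted values depend on the prior count.

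The RefSeq span of XCR1 overlaps CCR1 on the same strand, so the reads of these genes may not be fully separated. CXCR4, the receptor of CXCL12, ranged from 3.22 to 56.9 CPM in C, 5.72 to 10.9 in VE, 6.62 to 13.6 in HT and 6.05 to 72.5 in VEHT and was not called (2.34 ± 0.88, q = 0.193, edgeR). CXCR5, the follicle receptor of B cells, and CX3CR1, the fractalkine receptor of monocytes, were not called either.

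The atypical receptors split. CCRL2, which binds chemerin without signalling, was called (5.48 ± 1.33, q = 0.0482, edgeR), with 0.678 to 38.9 CPM in C, 0.641 to 3.20 in VE, 0.569 to 2.22 in HT and 1.30 to 44.3 in VEHT. ACKR1 to ACKR4 all had interactions at or below 0, between -0.73 and -0.01, and none was called. ACKR3, a scavenger of CXCL12, ranged from 124 to 271 CPM in C, 97.1 to 239 in VE, 115 to 262 in HT and 90.9 to 292 in VEHT.

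ACKR4, a scavenger of CCL19, CCL21 and CCL25, ranged from 41.7 to 186 CPM in C, 84.3 to 400 in VE, 67.5 to 189.4 in HT and 46.0 to 202 in VEHT. ACKR1, the Duffy receptor of venular endothelium, ranged from 20.8 to 95.6 CPM in C, 33.7 to 90.5 in VE, 39.4 to 159 in HT and 26.6 to 102 in VEHT. Here G041, G141 and G047 were the 3 lowest of all 24 piglets, at 20.8, 26.6 and 29.8 CPM, and endothelial markers were also lowest in them; the part of these markers was not tested. ACKR2, which degrades inflammatory CC ligands, ranged from 23.7 to 138 CPM with all 4 diets overlapping.

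For vitamin E, taken over both hydroxytyrosol levels, edgeR called 0 of 44 chemokine genes and 0.0% of all genes tested, and no chemokine gene had an unadjusted p under 0.05, against 3.93% of all genes. DESeq2 called 1 chemokine gene, beside 0.0682% of all genes (0.0398% higher at 100 mg/kg): CCL1, which was lower at 100 mg/kg (-9.34 ± 2.15, q = 0.0325). All 6 VE piglets had no count of CCL1 and only 4 piglets were above 0.1 CPM, so this value is no bound. Mean CCL1 was 4.11 CPM in C against 0 in VE, while it was higher in VEHT (0.748) than in HT (0.00625).

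The pairs of diets were each fitted on 12 libraries and share libraries with one another. edgeR called no gene in any pair at a q of at most 0.10 and a fold change of at least 1.5, and the share of all genes called was 0.0% in each. In C vs VE, 23 of 43 chemokine genes had an unadjusted p under 0.05, all higher in C, beside 12.1% of all genes, and DESeq2 called 20, beside 5.01% (4.07% higher in C). The smallest p values were those of CXCL8 (6.09 ± 1.54), CCL22 (7.33 ± 1.89) and CCR7 (2.87 ± 0.80 log2, C over VE). The median over the 43 genes was 2.02, and without G041 and G047 it was 0.05 with 1 gene under 0.05, CCL21, which was lower in C (-0.80 ± 0.30). This count was below the share of 7.55% over all genes in that fit.

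In C vs HT, 20 of 44 had an unadjusted p under 0.05, 19 of them higher in C, beside 12.6% of all genes, and DESeq2 called 18, beside 4.24% (3.87% higher in C). CCL22 (8.24 ± 2.04), PPBP (6.89 ± 1.75) and CCL1 (8.77 ± 2.33) had the smallest p. The exception was CCL26, which was higher in HT (-2.26 ± 0.74, C over HT) and at -0.998 ± 0.45 without G066. In VE vs HT, 3 of 43 had an unadjusted p under 0.05, beside 9.52% of all genes: CCL25 (0.67 ± 0.25) and CXCL14 (1.05 ± 0.41) were higher in VE and CCL26 was higher in HT (-1.82 ± 0.72, and -0.55 ± 0.45 without G066). DESeq2 called none of the 43 there, beside 0.598%.

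In C vs VEHT, CCL26 was the only one of 44 with an unadjusted p under 0.05 (-1.36 ± 0.34, unadjusted p = 0.00156, edgeR), beside 2.1% of all genes, followed by CCL4 (-1.08) and CCR10 (-0.42). DESeq2 called none of the 44, beside 0.00568% of all genes. CCL26 stayed at -1.07 or below when any single piglet was left out and at -1.42 ± 0.43 without the 3 piglets. G041, G047 and G141 lie on both sides of this pair.

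In VE vs VEHT, 26 of 43 had an unadjusted p under 0.05, beside 9.04% of all genes, and 25 of them were higher in VEHT, led by CCL22 (-6.25 ± 1.71), CXCL8 (-4.93 ± 1.38) and CCR7 (-2.97 ± 0.85). CCL25 was the exception and was higher in VE (0.81 ± 0.29). DESeq2 called 12, beside 1.46%. Without G141, 8 genes were under 0.05: CCL22, CCL17, CCL19, CCR7, CXCL8 and CCL26 were higher in VEHT, while CCL25 and CCL16 were higher in VE. The share of all genes under 0.05 was then 6.99% (3.75% higher in VEHT). Among the piglets left, VEHT piglet G208 was the highest for CCL22 (9.71 CPM), CXCL8 (14.2), CCL17 (3.41) and CCL19 (105).

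In HT vs VEHT, 19 of 44 had an unadjusted p under 0.05, all higher in VEHT, beside 7.89% of all genes, and DESeq2 called 9, beside 0.681%. CCL22 (-7.11 ± 1.85), PPBP (-6.27 ± 1.70) and CCL19 (-3.32 ± 0.91) had the smallest p. Without G141 10 genes were under 0.05, of which 9 were higher in VEHT and CCL16 was higher in HT (2.20 ± 0.56). The share of all genes was then 4.2% (2.96% higher in VEHT). Here too VEHT piglet G208 was the highest of the piglets left for CCL22 (9.71 CPM) and CCL19 (105).

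Other genes of the chemokine pathway were described by lists. Of 18 genes of G protein and kinase signalling below the receptors, 8 were called for the interaction, all positive, with a median of 2.86, among them PIK3R5, PIK3CD, PLCB2, FGR, PRKCB, DOCK2 and RAC2. The broadly expressed GNAI3 (-0.23) and RAC1 (0.20, and -0.18 without the 3 piglets) were not called. Of 8 integrins and adhesion partners of leukocyte arrest 5 were called, among them the leukocyte integrin gene ITGB2 at 5.12 ± 1.34. Over all genes tested, 3.95% were called for the interaction.

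Of 12 inducers of chemokine genes and their receptors TNF alone was called (4.04 ± 1.25, q = 0.0964, edgeR), while the receptor gene IL1R1 was at -0.04. Of 7 genes of chemokine cleavage and presentation the protease gene MMP9 alone was called (6.41 ± 1.65, q = 0.056, edgeR). None of 11 desensitisation genes and none of 11 transcription factor genes was called by edgeR, although 7 and 5 of them had an unadjusted p under 0.05, all positive. The shares over all genes tested were 3.95% called and 14.8% with an unadjusted p under 0.05 (11.5% positive). Without G041, G047 and G141 none of these 6 lists had a called gene.

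Among the 21 piglets other than G041, G047 and G141, the chemokine genes were set against the mean log2 CPM of the 16 macrophage markers, none of which is a chemokine gene. Pearson's r was tested with 100000 permutations, 2-sided, and adjusted over 17586 genes. With q at most 0.10, 12 of 44 chemokine genes were called, all positive, against 5.04% of all genes called positive, and by Spearman's rho 11. The median r was 0.42 for the chemokine genes and -0.06 for all genes. The highest were CCR1 (r = 0.91, rho = 0.89), CCL3L1 (0.90, 0.87), CCRL2 (0.90, 0.84) and CCL2 (0.85, 0.72), each with p = 1e-05, the smallest the permutations can give, and q = 0.0011 for r. CCR3, CCL17, CCL14, CCL8, PPBP, CXCR4 and ACKR2 were also called with r from 0.81 to 0.59. CCL17 was near the floor, with a median of 0.0244 CPM over these 21 piglets.

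With the 2 piglets farthest from the median marker level left out, 11 chemokine genes were called, beside 4.21% of all genes called positive, and r was 0.87 for CCR1, 0.87 for CCL3L1, 0.87 for CCRL2 and 0.78 for CCL2. ACKR2 was no longer called (r = 0.57, q = 0.150 by permutation). By Spearman's rho 8 were then called, beside 616 of all 17586 genes called positive. CCL2 was not among them (rho = 0.62, q = 0.122 by permutation). Deviations from the diet means gave 13 called chemokine genes, beside 7.22% of all genes, and r = 0.92 for CCR1. CCL14 had an r of 0.73 beside an interaction of -0.05. CCL26 (0.13), CCL25 (-0.36), CCR10 (-0.38) and CXCL12 (-0.32) were not called. All genes share the same libraries, so these relations are not independent of one another.

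**Figure D5:**
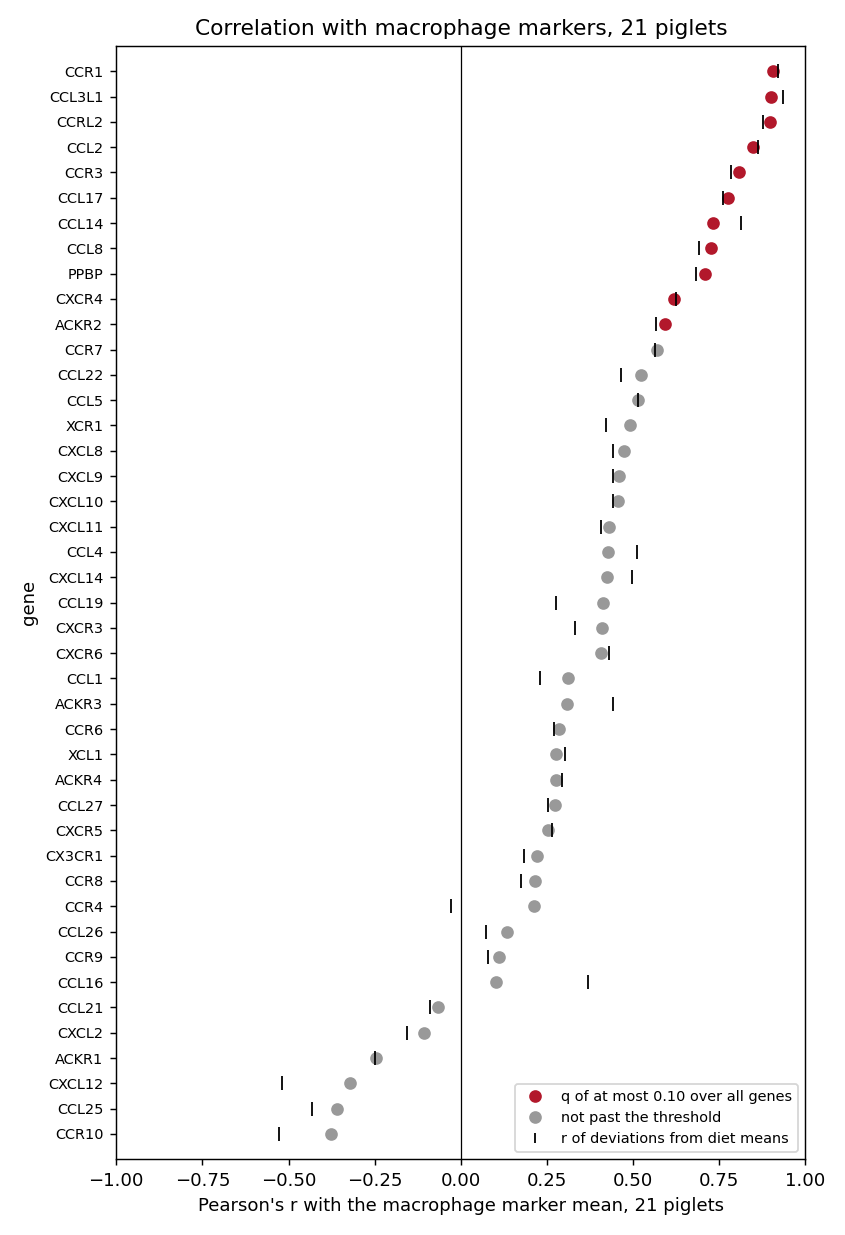
Points give Pearson's r between log2 CPM of 43 chemokine genes and the mean log2 CPM of 16 macrophage markers over 21 piglets, red where q is at most 0.10, and ticks give r of the deviations from diet means. The points run from 0.91 for CCR1 to -0.38 for CCR10.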

How the data were processed

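Total RNA of dorsal subcutaneous fat had been sequenced in 24 libraries, 1 per piglet, 6 per maternal diet. The values deposited are raw, unnormalised counts for each Ensembl gene. The authors had trimmed the reads, mapped them to Sscrofa11.1 and counted them. The submitters' processing notes name FastQC, Trim Galore, HISAT2, HTSeq and DESeq2, while versions, annotation release and strand setting are not given in the sources used here. The counter's summary entries (per library 8.31% to 16.5% without a feature, 1.48% to 2.74% ambiguous, 1.22% to 1.93% of low quality, 1.59% to 2.45% not aligned and 2.41% to 5.15% not unique) entered neither library sizes nor tests. Libraries held 36614639 to 61919211 gene counts, no library duplicated another, and counting error is small beside the spread between piglets except for genes of few reads.

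Of 25880 Ensembl IDs, 14857 were named by an ID table and 43 only by the tables of the study, among them CCL22 and CCR8. A gene was dropped from a fit when 75% or more of its libraries had no count of it, as in the study's methods. The factorial model and the 6 pairs of diets were tested with edgeR 4.0.16 (quasi-likelihood F test, TMM factors) in R 4.3.3, with Benjamini-Hochberg adjustment over all genes, a q of at most 0.10 and, except for the interaction, a fold change of at least 1.5. Log2 CPM used a prior count of 0.5. Standard errors given for edgeR were derived from the log2 difference and its F statistic, so they are approximate. Alternatives were DESeq2 1.42.0, RLE size factors, no filter, filterByExpr, limma 3.58.1 voom with sample weights, all libraries in 1 fit, a q of 0.05, each piglet left out and the removal of G041, G047 and G141. Correlations used Python 3.11.15 and scipy 1.17.1, and figures matplotlib 3.10.9. The fits and permutations were tested on simulated data. Promoters were read from RefSeq's Sscrofa11.1 by gene symbol for 43 of the 44 genes. Values were given in full for the 6 interaction calls with the smallest p, genes with an interaction below 0, CCL26, the most abundant gene of each role group and the top 3 of each pair, and by ranges for the other calls. Values of a few single genes are not reported here, while counts and medians include them. The genes, lists and markers were chosen with earlier results of these data known.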

Additional observations from a re-analysis of the deposited data

Results flagged for a closer look

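Single piglets far from the others of their diet (Dixon's gap test on log2 CPM, 95% level) were found in 13 of 175 gene and diet groups, where chance gives about 1 in 20. Of these 4 were high values of VEHT piglet G141, at 0.429 CPM for CCL16, 21.04 for CCR7, 278 for CXCL12 and 72.5 for CXCR4. CCL26 held 3 of the 13: C piglet G117 was low at 2.22 CPM, VE piglet G085 low at 2.75 and VEHT piglet G162 high at 32.5. High values were also those of C piglet G041 for CCL21 (57.5 CPM) and of C piglet G117 for CCL27 (0.244 CPM). Low values were those of VE piglet G127 for CCL19 (4.72 CPM), HT piglet G012 for CCL4 (0.311 CPM), HT piglet G196 for CCR10 (0.643 CPM) and VEHT piglet G164 for CXCL11 (0 CPM).

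With all 24 libraries the interaction test called 18 chemokine genes, all positive on the log2 scale, of which 17 are given. The values were 16.94 for CCL1, 14.43 for CCL22, 13.01 for CCL17, 11.69 for PPBP, 10.23 for CXCL8, 9.14 for CCL8, 8.28 for CCR4, 8.19 for CXCR6 and 7.71 for CCR3. They were 7.52 for CCR1, 7.15 for CXCR3, 7.07 for XCR1, 5.96 for CCL19, 5.48 for CCRL2, 5.38 for CCR7, 4.75 for CCL2 and 4.46 for CXCL14. None of the 18 was called without G141 alone, without G041, G047 and G141 together, or with voom. The values of CCL1, CCL22 and CCL17 depend on the prior count. So do those of CCR4, CXCR6, CXCR3 and XCR1, which also had VE or HT piglets without a count.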

How the results depend on the processing

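The count of 18 chemokine genes called for the interaction was the same with RLE size factors and without a filter, 16 with filterByExpr, 12 at a q of 0.05 and 27 with DESeq2. It was 0 with voom, 0 without G041, G047 and G141 and 0 when G208 was left out too. G041, G047 and G141 were picked by their marker levels in these data, and G208 was added after seeing the data. Leaving out single piglets gave 0 to 20 calls, with 0 without G141, 9 without G047 and 11 without G041. Where edgeR called 0, DESeq2 called 1 gene for vitamin E, 20 and 18 when C was compared with VE and with HT, and 12 and 9 when VEHT was compared with VE and with HT; the cause was not tested.

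Directions of single genes changed as follows, and the cause was not tested. With voom the interaction was -0.15 for CCR9 and -1.94 for CXCR5, and CCL26 in HT vs VEHT was -0.10. Without G041, G047 and G141 the interaction was 0.091 for ACKR2, -0.64 for CCR6, -2.89 for CCR9, -0.091 for CXCL12, -0.11 for CXCL2, -0.26 for CXCR4 and -0.41 for CXCR5. Without G208 as well it was -0.74 for CCL17, -0.0062 for CCL3L1, -1.14 for CCR6, -2.77 for CCR9, -0.21 for CXCL12, -0.089 for CXCL2, -0.51 for CXCR4 and -0.44 for CXCR5. Leaving out single piglets, ACKR2 ranged from -0.24 to 0.29, ACKR3 from -0.21 to 0.12, CCL14 from -0.41 to 0.35, CCR9 from -0.016 to 3.27 and CCL26 in HT vs VEHT from -0.34 to 1.23.

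No paired analysis was possible because the count columns carry animal numbers and no replicate numbers, and each piglet came from a separate litter. Genes of few reads (CCL1, CCL27, CCR6, CCR9) limit what can be shown at this depth.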

Other observations

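Chemokine genes that lie together on the Sscrofa11.1 assembly did not all share a pattern. CCL19 and CCL21 lie close together on chromosome 10, and CCL19 was called for the interaction (5.96) while CCL21 was at -0.39. On chromosome 12 CCL1, CCL8 and CCL2 were called, while CCL3L1 (3.66) and CCL4 (-0.54) were not. On chromosome 8 CXCL8 and PPBP were called and CXCL2 was at 0.37. On chromosome 13 CXCR6, XCR1, CCR1, CCR3 and CCRL2 were called and CCR9 was not. These positions are given as values, and no test of neighbourhood was made.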
